A study of Mus musculus with 16 samples.

Results

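The translation initiation factor genes of mouse haematopoietic stem cells (HSCs) were taken as the protein-coding genes whose GENCODE symbol starts with Eif and a digit from 1 to 6, without the Eif2ak kinases. This gave 51 of the 46078 genes in the count table, and 51 of its 21519 protein-coding genes. The members were grouped by complex: 5 genes of eIF1 and eIF1A, 6 of eIF2 and its relatives, 5 of eIF2B, 14 of eIF3, 12 of eIF4F and its cofactors, 4 repressors of eIF4E and 5 genes of eIF5 and eIF6. The symbol alone placed Eif1ad in the first of these groups. The rule uses the symbol and no measured value.

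RNA-Seq (Smart-seq2, which copies polyadenylated RNA and amplifies it by PCR) was run on pools of 30 HSCs, sorted as viable lin- sca1+ ckit+ (LSK) CD48- CD150+ cells from tibia, femur and humerus. Endosteal HSCs came from the bone fraction and central HSCs from the marrow fraction. The mice were untreated, of the strain C57/Bl6, and either wild type (WT) or Gfra2-/- (the gene of the neurturin receptor GFRα2). The sources used here name no cell type to which the deletion was limited. The groups held 4 endosteal WT, 4 central WT, 4 endosteal Gfra2-/- and 3 central Gfra2-/- libraries, named A to D within a group by their order in the table, and the ages were not given in the sources used here. The comparisons asked whether HSCs of the 2 places differ, in each genotype, and whether the genotypes differ, in each place.

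Initiation factors load the small ribosomal subunit with the initiator tRNA, bring it to the capped end of an mRNA and let it scan to the start codon. eIF2 carries the initiator tRNA as long as it is bound to GTP, and eIF2B is the exchange factor that recharges it, the step at which stress kinases slow translation. eIF4F recognises the cap, opens the mRNA with a helicase and is held back by the 4E-binding proteins downstream of mTOR, and HSCs are known for a low rate of protein synthesis compared with their progeny.

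Promoters are shown because several members share one short element near their start. RefSeq (GRCm38.p6) gave windows from 250 bases before to 50 bases after the start for 39 of the 51 members, with 51 starts, out of 27025 genes with 32851 starts. Windows were missing for 12 members, among them Eif2b3, Eif3e, Eif3j2 and Eif6, which are named only. The E-box CACGTG reads the same on both strands, so a site was counted once, and it is the letter string to which MYC with MAX and several other basic helix-loop-helix factors are known to bind. It lay in 12 of the 51 member windows (23.5%, 10 genes) and in 7.15% of all windows, where starts of the same gene share bases. The first site of Eif4e lay at -228 from its start, and other starts of Eif4e and Eif5a had none. Where a window held 2 sites, as for Eif4e and Eif4g1, only the first is printed. In the lines that follow, 30 bases around the site are printed in the direction of transcription with the E-box in capitals, for Eif5a and for some members of eIF3 and eIF4F.
Eif5a, chr11:69921443-69921472, minus strand: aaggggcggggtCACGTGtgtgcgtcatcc
Eif5a, chr11:69920791-69920820, minus strand: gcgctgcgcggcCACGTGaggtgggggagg
Eif4e, chr3:138527028-138527057, plus strand: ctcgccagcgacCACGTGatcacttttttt
Eif4g1, chr16:20672661-20672690, plus strand: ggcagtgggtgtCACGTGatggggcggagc
Eif4h, chr5:134639488-134639517, minus strand: cggccgccgcacCACGTGggccgcagagcg
Eif3f, chr7:108934335-108934364, plus strand: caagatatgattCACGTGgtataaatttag
Eif3k, chr7:28981915-28981944, minus strand: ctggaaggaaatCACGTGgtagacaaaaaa
The 5 bases CTTTT at the start of Eif2s3x and CTCTC at that of Eif3f were the only member starts with a C followed by 4 pyrimidines on the gene's strand, the letters of a terminal oligopyrimidine start. That was 3.92% of the member starts, beside 2.51% of all starts and 17.8% of the starts of ribosomal protein genes taken by symbol. These are letter matches, and no binding was measured here.

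The libraries were of unequal depth, and this touches every comparison with central WT HSCs. Reads on genes ran from 826487 to 3367289 in the 4 central WT libraries and from 4416648 to 18550008 in the other 11, so that depth and group cannot be told apart there. Spike-in reads were 3.43% to 7.10% in central WT A to C, 0.421% in central WT D and 0.192% to 2.98% in the other 11. Genes detected were 11951 to 14432 in the central WT libraries and 14457 to 17112 in the other 11. The part of these differences in low central WT values was not tested. Gfra2 itself had 0 to 4 counts in each WT library and gives almost no check of the labels. It had 47 and 9 counts in the endosteal libraries labelled Gfra2-/- B and D, more counts than any WT library held. Scaled to depth this was 2.37 and 0.788 CPM, below the 5.36 CPM that 4 counts make in the shallow central WT C, so that counts this low decide nothing about the labels. Some of the named members' results on that group are also given without these libraries. Genes listed for HSCs summed to 2180 to 4232 CPM in each library (counts scaled to a common library total after TMM normalization), and the list holds Cd48, which the sort selects against and which had 0 to 17.4 CPM. Neutrophil and monocyte markers summed to 2717 CPM in central WT D and to at most 27.0 CPM in endosteal WT libraries. In central WT D the sum came from Camp, Ngp, S100a8 and S100a9, while Elane, Mpo, Ly6g and Csf1r had 0 counts. B cell markers summed to 1935 CPM in endosteal Gfra2-/- D. The part of both sums in the results was not tested, and each of these libraries was left out in turn. Y-linked Ddx3y had 36.6 to 181 CPM in the 15 libraries, and X-linked Xist 0 to 16.8 CPM in all but central WT B, where it had 62.2 CPM (200 counts) beside 54.7 CPM of Ddx3y.

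Nearly all of the machinery was expressed. Between 47 and 50 of the 51 members had at least 1 count in a library, and members together took 0.778% to 0.965% of the reads on genes. Their share was 0.910% to 0.965% in the 4 endosteal WT libraries and 0.778% to 0.871% in the 4 central WT libraries, without overlap. In Gfra2-/- HSCs it was 0.815% to 0.886% in the endosteal and 0.819% to 0.879% in the central libraries, which overlapped. The endosteal WT libraries were thus also above all Gfra2-/- libraries of both places. This share is a sum in which the highest genes weigh most, and Eif5a alone made up 4.08% to 13.5% of it.

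Per length, the level of the members differed over more than 2 orders of magnitude. Divided by the length of their exons, and averaged over the 4 group means, Eif5a came first with 332 CPM per kb (148 to 465 over the libraries) and Eif3f second with 261 CPM per kb (153 to 341), and their ranges overlapped. Eif3k followed with 134 CPM per kb, Eif3h with 114 and Eif1b with 108, again with overlapping ranges. eIF3, the scaffold that holds the small subunit to eIF4F, had 14 of the 51 members. Of the 13 highest members 8 were of eIF3, a cut that falls on the last of these, Eif3c. The loosely bound subunit eIF3j was among the lowest, at 6.07 CPM per kb for Eif3j2 and 1.93 for Eif3j1. The cap-binding protein Eif4e stood at 14.5 CPM per kb, and the helicase paralog Eif4a2 at 52.5, above Eif4a1 at 14.3. The lowest tested member was Eif2s3x at 1.38 CPM per kb, Eif4ebp3 had counts in 2 of 15 libraries, and Eif4e1b, an eIF4E relative of oocytes, had 0 counts in all 15. Of these, Eif3j1 with Eif3j2, Eif2s3x with Eif2s3y, Eif1a with Eif1ax and Eif4a1 with Eif4a2 are pairs of similar sequence, and 7 pseudogenes named after initiation factors are in the table, so reads may be lost or shared between such copies.

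**Figure D1:**
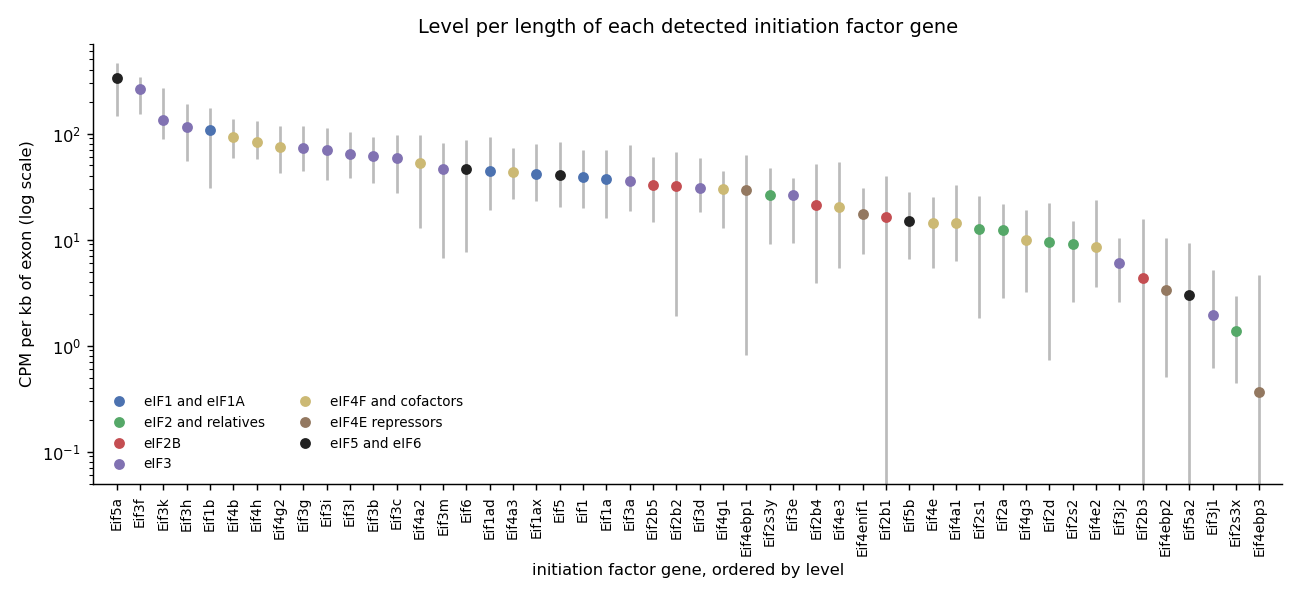
Mean level of the 50 detected initiation factor genes in CPM per kb of exon (log axis, ordered from the highest), coloured by complex; grey lines run from the lowest to the highest of the 15 libraries and reach the axis where a library had 0 counts. Eif5a at 332 and Eif3f at 261 CPM per kb lead, and Eif2s3x at 1.38 and Eif4ebp3 are lowest.

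No initiation factor gene passed an FDR of 10% in any comparison by edgeR's quasi-likelihood test, with Benjamini-Hochberg adjustment over all genes tested. In each comparison 49 of the 51 members could be tested. For endosteal against central WT HSCs, 0 of 49 members and 0 of 11181 genes passed (0%). At an unadjusted p under 0.05, 3 members (Eif2b3, Eif5a and Eif6) were reached beside 7.89% of all genes, all 3 higher in endosteal HSCs. Of the 882 genes under that p, 495 were higher there. The CPM of 4 members did not overlap between the groups (background 6.36%), again all higher in endosteal HSCs, as were 477 of the 711 genes without overlap. DESeq2 at the same FDR called 1 member, Eif2b3 (background 4.49%). The median log2 fold change of the tested members was 0.03, equal to the 0.03 of all genes.

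For endosteal against central Gfra2-/- HSCs edgeR again passed 0 members and 0% of 13860 genes. Eif5a was the 1 member at an unadjusted p under 0.05 (background 4.79%), 3 members did not overlap (background 7.34%) and DESeq2 called 1, Eif5a (background 2.75%). The median member stood at 0.03, as did all genes.

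Between the genotypes in endosteal HSCs, edgeR passed 0 members and 0% of 12970 genes, and 1 member, Eif4a2, was under an unadjusted p of 0.05 (background 6.69%). The CPM of 2 members did not overlap (background 6.24%) and DESeq2 called 1, Eif3j2 (background 3.71%). Here the median member was at -0.23 against 0.03 for all genes, and 32 of the 49 tested members had a negative value, as did 6287 of the 12970 genes. With endosteal Gfra2-/- B and D left out, an alternative added after the data were seen, the median member was at -0.16 and that of all genes at -0.06, a gap of 0.09 below all genes. With spike-in size factors the gap was 0.05.

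Between the genotypes in central HSCs, edgeR passed 0 members and 6 of 11772 genes (0.051%). Eif2b3 and Eif2b1 were under an unadjusted p of 0.05 (background 8.73%), 6 members did not overlap (background 12.4%) and DESeq2 called 1, Eif2b3 (background 5.14%). The median member was at -0.09 and that of all genes at 0.03. These comparisons share groups: each of the 4 groups enters a comparison of places and a comparison of genotypes, so a level that is off in one group appears in both.

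The test of the difference between the place effects of the 2 genotypes (interaction, all 15 libraries) passed 0 members and 0% of 15416 genes by edgeR. Eif2b3 and Eif6 were under an unadjusted p of 0.05 (background 6.97%), and DESeq2 called 1 member, Eif2b3 (background 1.68%). Averages over the other factor, added after the data were seen, also passed 0 members by edgeR. For endosteal against central over both genotypes the background was 0.0519% at the FDR and 10.8% at an unadjusted p under 0.05, where 3 members stood. DESeq2 called 3, Eif2b3, Eif3j2 and Eif5a (background 4.87%). For Gfra2-/- against WT over both places the background was 0.824% at the FDR and 14.5% at the unadjusted p, which 6 members reached, and DESeq2 called 6, Eif3e, Eif2b3, Eif2b1, Eif1, Eif4h and Eif3j2 (background 9.86%). At the unadjusted p, the share of tested members lay below that of all genes in each of these fits.

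**Figure D2:**
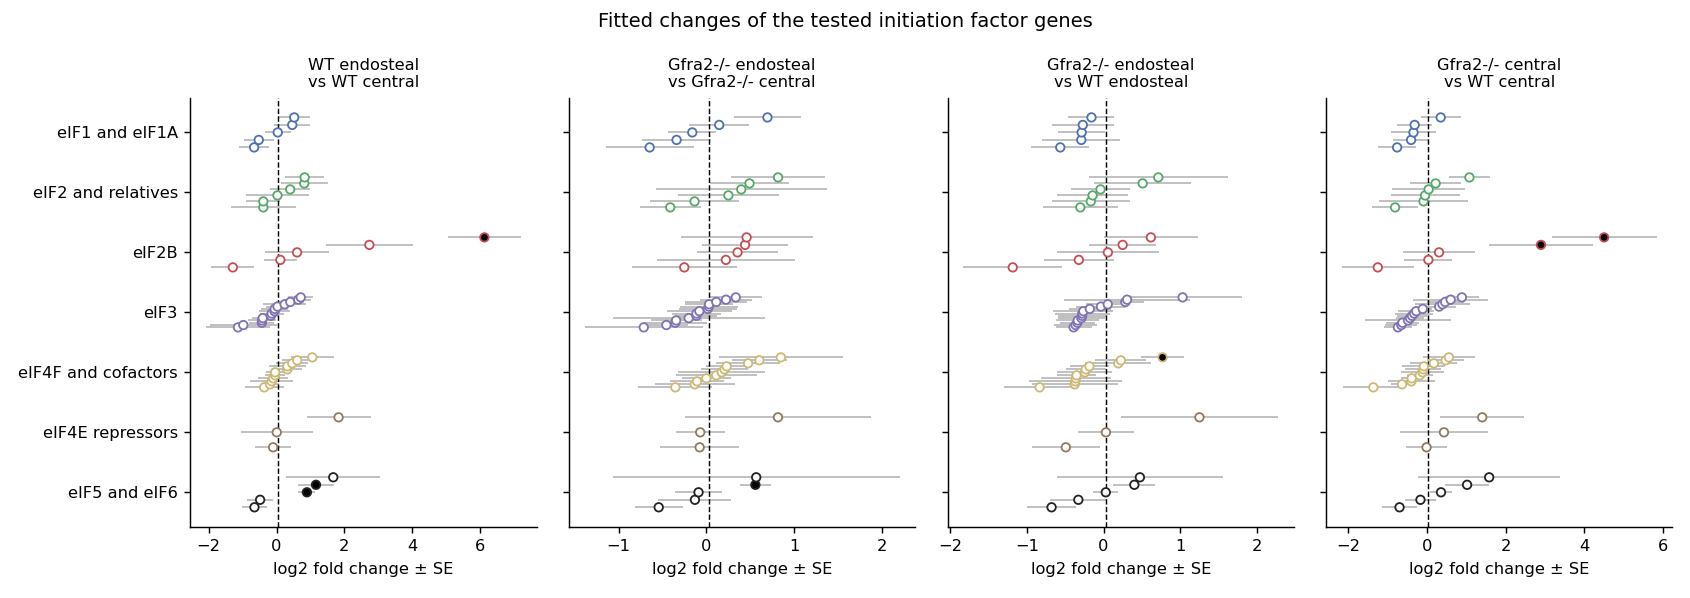
Log2 fold change with its SE for the 49 tested members in the 4 comparisons, by complex; filled points have an unadjusted edgeR p under 0.05, dashed lines mark the median of all genes, and each panel has its own horizontal axis. Most members lie near the dashed line, and Eif2b3 stands apart at 6.12 between endosteal and central WT HSCs and at 4.51 between the genotypes in central HSCs.

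eIF1 and eIF1A help the scanning subunit to find the start codon. All 5 genes of the group, to which Eif1ad belongs by symbol alone, were lower in endosteal Gfra2-/- than in endosteal WT HSCs. In central HSCs 4 of 5 were lower. The medians were -0.29 and -0.34, with 0 genes under an unadjusted p of 0.05 in both. Of all genes, 6287 of 12970 and 5727 of 11772 were lower. Eif1, which guards the accuracy of start codon choice, had 102, 93.6, 146 and 130 CPM in central WT libraries and 55.9, 70.5 and 86.2 CPM in central Gfra2-/- libraries. Those groups did not overlap, while its endosteal libraries did, with 60.8 to 115 CPM in WT and 42.1 to 75.3 CPM in Gfra2-/- HSCs. Averaged over both places, Eif1 stood at -0.65 (SE 0.28) on the log2 scale, with an edgeR adjusted p of 0.285 and a DESeq2 adjusted p of 0.0297.

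eIF2 brings the initiator tRNA, and its γ subunit is encoded by Eif2s3x on the X chromosome and by its partner Eif2s3y on the Y chromosome. Eif2s3y had 197, 165, 42.2 and 78.5 CPM in endosteal WT, 60.7, 55.7, 37.5 and 113 CPM in central WT, 123, 124, 73.4 and 116 CPM in endosteal Gfra2-/- and 164, 181 and 90.2 CPM in central Gfra2-/- libraries. It was thus present in all 15 libraries, central WT B with its Xist reads included, and the groups overlapped. Eif2s3x had 1.71 to 7.54 CPM in endosteal WT, 3.03 to 8.15 CPM in central WT, 3.99 to 11.3 CPM in endosteal Gfra2-/- and 3.85 to 6.62 CPM in central Gfra2-/- libraries. Per length, Eif2s3y stood at 26.5 and Eif2s3x at 1.38 CPM per kb. Neither gene was under an unadjusted p of 0.05 in any comparison by edgeR, and the interaction of Eif2s3y was -1.26 (SE 0.70, adjusted p = 0.748 by edgeR). The other 4 genes of the group, Eif2s1, Eif2s2, Eif2a and Eif2d, gave no value under 0.05 in the 4 comparisons.

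Among the genes of eIF2B, the exchange factor for eIF2, Eif2b3 was nearly absent from the central WT libraries. Eif2b3, the γ subunit of the catalytic part (chr4, from 117019402, GRCm38), had 46.1, 81.5, 26.4 and 101 CPM in the endosteal WT libraries and 0.905, 1.87, 0 and 0.337 CPM in the central WT libraries. It had 33.3, 8.18, 25.1 and 45.3 CPM in endosteal and 16.7, 30.3 and 14.0 CPM in central Gfra2-/- libraries. Central WT HSCs were below each of the other 3 groups in all libraries, and the 3 other groups overlapped.

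The central WT values rest on 1, 6, 0 and 1 counts in libraries A to D. At the lowest endosteal WT level these libraries would have held 29.1, 84.8, 19.7 and 78.2 counts, against the 0 to 6 they held. These numbers scale by depth alone, and the cause of the low counts was not tested. Endosteal against central WT HSCs gave a log2 fold change of 6.12 (SE 1.08, adjusted p = 0.142, edgeR), and DESeq2 gave an adjusted p of 9.86e-08. Over the 17 alternatives that gave a value, it ran from 5.47 to 9.13 with adjusted p from 9.86e-08 to 0.642; DESeq2, no filter on low counts and a fit of all 4 groups took it past the FDR.

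In Gfra2-/- HSCs the same contrast of Eif2b3 was 0.46 (SE 0.75, adjusted p = 0.999, edgeR). The difference between these 2 effects was -5.69 (SE 1.21, adjusted p = 0.523, edgeR), with a DESeq2 adjusted p of 0.000162, and -5.66 without endosteal Gfra2-/- B and D. Central Gfra2-/- against central WT HSCs gave 4.51 (SE 1.34, adjusted p = 0.334, edgeR; DESeq2 adjusted p = 0.00398) and shares the central WT libraries with the first contrast. Endosteal Gfra2-/- against endosteal WT HSCs gave -1.18 (SE 0.65, adjusted p = 0.76, edgeR), and -1.14 without endosteal Gfra2-/- B and D.

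The regulatory subunit Eif2b1 had a similar low group. It had 12.7, 40.7, 84.3 and 37.7 CPM in endosteal WT, 0, 18.7, 6.70 and 0.337 CPM in central WT, 89.1, 104, 40.2 and 36.8 CPM in endosteal Gfra2-/- and 57.2, 41.3 and 50.3 CPM in central Gfra2-/- libraries. The genotypes did not overlap in central HSCs, with a log2 fold change of 2.90 (SE 1.33, adjusted p = 0.57, edgeR), and the WT groups overlapped in 1 library, central B.

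The groups overlapped for the other 3 subunits. Eif2b4, of the regulatory part, had 127, 135 and 95.7 CPM in central WT libraries A, C and D, 20.2 CPM in library B and 96.2 CPM in central Gfra2-/- C. It had 28.8 to 50.3 CPM in endosteal WT HSCs, a log2 fold change of -1.29 (SE 0.63, adjusted p = 0.641, edgeR). Eif2b2 had 3.62 to 91.2 CPM and Eif2b5, the catalytic subunit, 47.1 to 124 CPM in central WT libraries, both overlapping with endosteal WT HSCs. The spread within groups was uneven. Eif2b2 had 12.9 to 126 CPM in endosteal WT but 68.2 to 78.3 CPM in endosteal Gfra2-/- libraries.

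**Figure D3:**
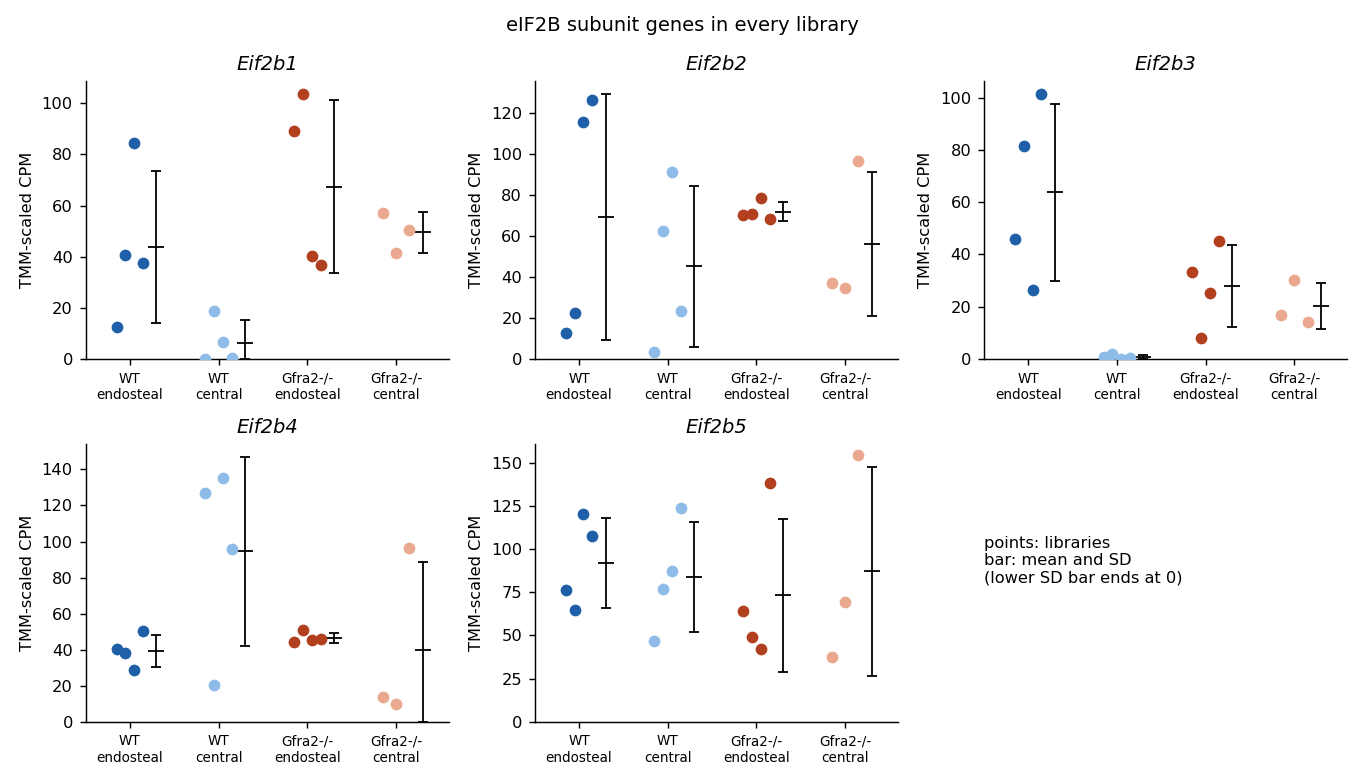
TMM-scaled CPM of the 5 eIF2B subunit genes in each library (points) with the group mean and SD (bars, cut at 0). For Eif2b3 the 4 central WT libraries lie at 0 to 1.87 CPM, below all others, and Eif2b1 has its lowest values in the same group, whereas Eif2b2, Eif2b4 and Eif2b5 overlap between groups.

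eIF3 is the largest initiation factor and a platform for the others. Between genotypes its 14 genes had medians of -0.27 in endosteal and -0.30 in central HSCs, with 10 and 9 of 14 lower in Gfra2-/- HSCs, and 0 of 14 under an unadjusted p of 0.05 in each. Of all genes, 6287 of 12970 and 5727 of 11772 were lower. Eif3e, which contacts eIF4G, had positive values in both. It had 139, 194, 201 and 171 CPM in endosteal WT, 137, 136, 63.0 and 109 CPM in central WT, 187, 202, 210 and 258 CPM in endosteal Gfra2-/- and 225, 146 and 258 CPM in central Gfra2-/- libraries.

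Central WT HSCs were below endosteal WT and below central Gfra2-/- HSCs without overlap for Eif3e. The log2 fold changes were 0.64 (SE 0.38) and 0.89 (SE 0.43), with edgeR adjusted p of 0.701 and 0.593, and these contrasts share the central WT libraries. Eif3g, an RNA-binding subunit, had 138 to 232 CPM in endosteal and 89.0 to 120 CPM in central WT libraries, without overlap (0.71, SE 0.36, adjusted p = 0.641, edgeR).

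Eif3j2, 1 of 2 near-identical genes of the subunit that sits in the decoding centre, was low throughout. It had 7.07, 6.20, 7.00 and 6.71 CPM in endosteal WT, 22.6, 6.22, 18.8 and 11.1 CPM in central WT, 12.2, 17.3, 11.8 and 13.7 CPM in endosteal Gfra2-/- and 24.5, 20.7 and 22.5 CPM in central Gfra2-/- libraries. The genotypes did not overlap in endosteal HSCs, nor did the places in Gfra2-/- HSCs. For the first of these edgeR gave 1.03 (SE 0.77, adjusted p = 0.842) and DESeq2 an adjusted p of 0.00844, and for the second edgeR gave -0.71 (SE 0.67, adjusted p = 0.999).

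eIF4F binds the cap and unwinds the mRNA. Eif4e, its cap-binding subunit, had 150, 81.3, 121 and 85.0 CPM in endosteal WT, 80.6, 57.8, 121 and 55.3 CPM in central WT, 107, 137, 32.4 and 63.3 CPM in endosteal Gfra2-/- and 73.4, 64.7 and 87.8 CPM in central Gfra2-/- libraries. All groups overlapped, and its log2 fold change between endosteal and central WT HSCs was 0.46 (SE 0.48, adjusted p = 0.845, edgeR).

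Eif4a2, a helicase paralog of the complex, was the member of smallest p between genotypes in endosteal HSCs. It had 148, 306, 253 and 266 CPM in endosteal WT and 330, 513, 477 and 335 CPM in endosteal Gfra2-/- libraries, without overlap, and 181, 243, 68.4 and 273 CPM in central WT and 361, 289 and 169 CPM in central Gfra2-/- libraries, with overlap. The endosteal log2 fold change was 0.77 (SE 0.28, adjusted p = 0.737, edgeR) and 0.72 without endosteal Gfra2-/- B and D. The gene hosts several small RNAs and overlaps Rfc4 on the other strand, and reads were counted without strand.

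Eif4h, a cofactor of the helicase, had lower group means in Gfra2-/- than in WT HSCs of both places. It had 730, 392, 496 and 533 CPM in endosteal WT, 660, 651, 406 and 470 CPM in central WT, 491, 323, 490 and 375 CPM in endosteal Gfra2-/- and 408, 320 and 347 CPM in central Gfra2-/- libraries. Central groups overlapped by 1 library on each side, with a log2 fold change of -0.64 (SE 0.29, adjusted p = 0.573, edgeR), which turned to 1.02 with spike-in size factors, where the median of all genes was at 1.63. Averaged over both places it was -0.48 (SE 0.19, adjusted p = 0.235, edgeR), with a DESeq2 adjusted p of 0.0664.

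Among the repressors of eIF4E, the 4E-binding proteins keep the cap-binding protein from the scaffold eIF4G until mTOR phosphorylates them. Eif4ebp1 had 49.5, 103, 83.7 and 137 CPM in endosteal WT, 1.81, 74.9, 2.68 and 22.6 CPM in central WT, 109, 66.9, 47.9 and 41.8 CPM in endosteal Gfra2-/- and 91.3, 67.5 and 51.2 CPM in central Gfra2-/- libraries. Central WT A and C rested on 2 counts each, and library B overlapped with endosteal WT HSCs. The WT contrast was 1.83 (SE 0.94, adjusted p = 0.641, edgeR). Eif4ebp2 had 28.3, 11.7, 11.8 and 2.95 CPM in endosteal WT, 30.8, 10.9, 9.39 and 3.03 CPM in central WT, 60.1, 4.34, 7.06 and 57.7 CPM in endosteal Gfra2-/- and 16.1, 7.09 and 32.0 CPM in central Gfra2-/- libraries, so it varied more within than between groups.

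eIF5A, which binds the ribosome after initiation, eases its way through difficult stretches of peptide and carries the amino acid hypusine, was higher in endosteal than in central libraries of both genotypes. Eif5a (chr11, from 69916714, GRCm38; its 2 E-box windows are printed above) had 931, 955, 963 and 1045 CPM in endosteal WT and 561, 462, 351 and 686 CPM in central WT libraries. In Gfra2-/- HSCs it had 1007, 1106, 861 and 992 CPM in endosteal and 711, 677 and 634 CPM in central libraries. All 8 endosteal libraries were above all 7 central libraries.

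The means were 974 ± 49.5 CPM (SD, n = 4) against 515 ± 142 CPM in WT HSCs, a log2 fold change of 0.89 (SE 0.25, adjusted p = 0.438, edgeR). They were 991 ± 101 CPM (SD, n = 4) against 674 ± 38.6 CPM (n = 3) in Gfra2-/- HSCs, a log2 fold change of 0.56 (SE 0.18, adjusted p = 0.898, edgeR), or 0.47 without endosteal Gfra2-/- B and D. DESeq2 gave adjusted p of 0.171 and 0.0413. Averaged over both genotypes the value was 0.74 (SE 0.15, adjusted p = 0.128, edgeR), with a DESeq2 adjusted p of 0.000341 and a range of 0.58 to 1.10 over 25 alternatives. Their adjusted p (edgeR or DESeq2) ran from 0.000341 to 0.826, and 3 of the 25 passed the FDR.

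The interaction of Eif5a was -0.36 (SE 0.30, adjusted p = 0.846, edgeR). The genotypes were close in endosteal HSCs, at 0.03 (SE 0.16, adjusted p = 0.986, edgeR). In libraries with over 0.5% spike-in reads the contrast of the places was 0.98 in WT and 0.53 in Gfra2-/- HSCs, and the libraries below it were 1 of each group, too few for a value. With this split as a term in the fit, added after the data were seen, the contrasts were 0.92 and 0.55. With totals set by spike-in RNAs the Gfra2-/- contrast was -0.03, where the median of all genes was at -0.60, so Eif5a lay 0.57 above that median. Its paralog Eif5a2 had 0 to 46.9 CPM, and its groups overlapped.

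Eif6, which keeps the large ribosomal subunit from joining too early, differed between places in opposite directions in the 2 genotypes. It had 98.9, 176, 156 and 236 CPM in endosteal WT, 79.7, 90.5, 105 and 20.6 CPM in central WT, 94.8, 121, 88.3 and 112 CPM in endosteal Gfra2-/- and 128, 158 and 168 CPM in central Gfra2-/- libraries. The WT groups overlapped by 1 library and the Gfra2-/- groups did not. The log2 fold changes were 1.16 (SE 0.52, adjusted p = 0.623, edgeR) and -0.54 (SE 0.27, adjusted p = 0.999, edgeR), and the interaction was -1.72 (SE 0.62, adjusted p = 0.56, edgeR). Without central WT D, the library with high Camp, Ngp, S100a8 and S100a9 and the lowest Eif6 value, the interaction was -1.40. In libraries with over 0.5% spike-in reads it was -1.19. Without endosteal Gfra2-/- B and D it was -1.96, and the Gfra2-/- contrast was -0.73.

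**Figure D4:**
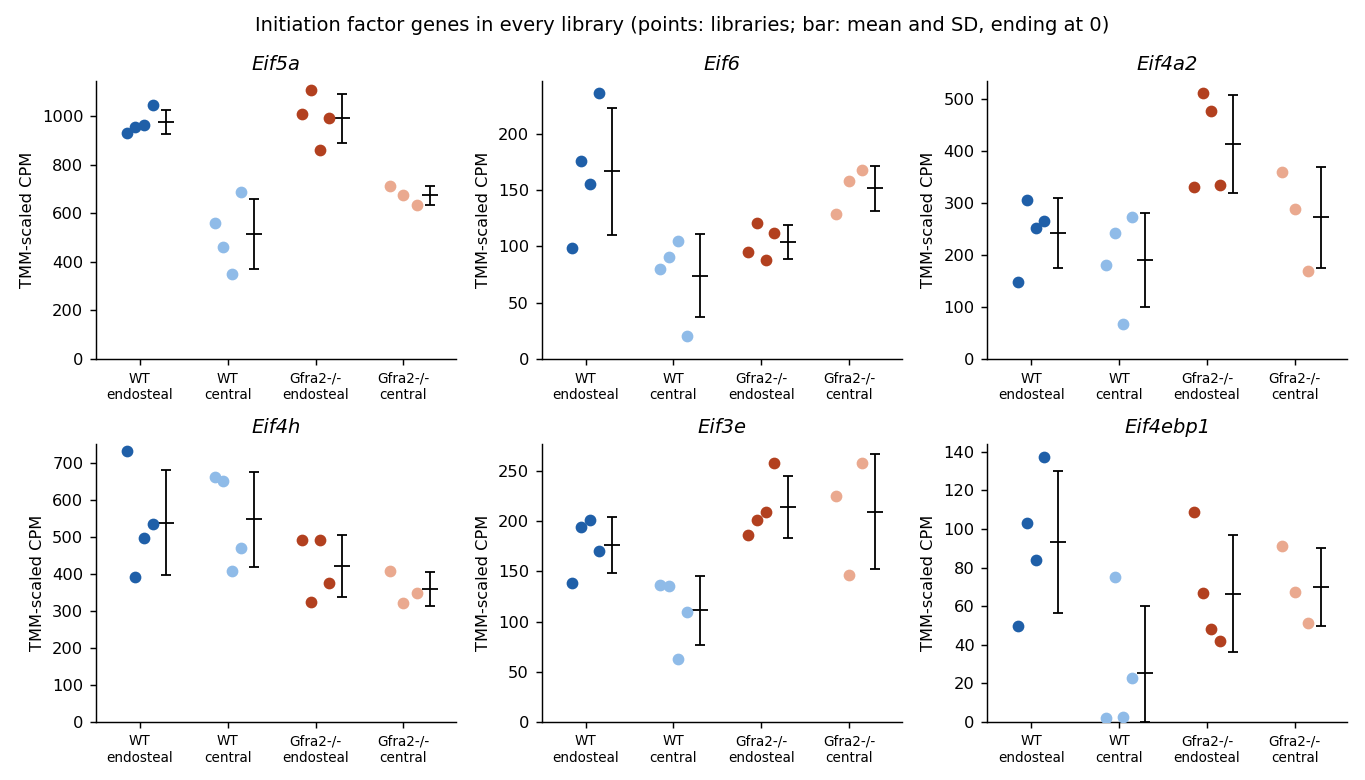
TMM-scaled CPM of Eif5a, Eif6, Eif4a2, Eif4h, Eif3e and Eif4ebp1 in each library (points) with the group mean and SD (bars, cut at 0). For Eif5a the 8 endosteal libraries lie at 861 to 1106 CPM, above the 7 central libraries at 351 to 711 CPM; for Eif4a2 the endosteal Gfra2-/- libraries lie above the endosteal WT libraries.

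Genes around the initiation factors were taken from 3 lists, and those named, beside 2 enzymes for eIF5A, are among the 3 of smallest p of their list in a comparison, so they were picked by value. Of 11 genes for the eIF2α kinases, phosphatases and the stress response, 10 could be tested and 0 passed the FDR by edgeR in any comparison. Atf4, the transcription factor whose translation rises when eIF2 is phosphorylated, had 72.3 to 162 CPM in endosteal and 169 to 250 CPM in central WT libraries, without overlap (-0.88, SE 0.37, adjusted p = 0.594, edgeR). In Gfra2-/- HSCs it had 51.8 to 102 CPM in endosteal and 130 to 153 CPM in central libraries, again without overlap (-0.82, SE 0.33, adjusted p = 0.999, edgeR). Averaged over both genotypes it stood at -0.84 (SE 0.24, adjusted p = 0.25, edgeR), with a DESeq2 adjusted p of 0.0039. The medians of this list were 0.44 in WT and -0.11 in Gfra2-/- HSCs for endosteal against central.

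Of 22 regulators and partners, 21 or 22 could be tested, and 0 passed by edgeR. Pabpc1, the poly(A)-binding protein that joins the ends of an mRNA through eIF4G, had 538 to 1142 CPM in endosteal WT and 274 to 487 CPM in endosteal Gfra2-/- libraries, without overlap (-0.86, SE 0.29, adjusted p = 0.737, edgeR). In central HSCs it had 700 to 1155 CPM in WT and 495 to 581 CPM in Gfra2-/- libraries, again without overlap (-0.74, SE 0.26, adjusted p = 0.417, edgeR). Averaged over both places it was -0.79 (SE 0.20, adjusted p = 0.102, edgeR), with a DESeq2 adjusted p of 0.00345. The list's median was -0.13 for the WT places and 0.11 and -0.33 for the genotypes in endosteal and central HSCs.

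Of 12 elongation and termination factors all 12 were tested, and 0 passed by edgeR. Between the genotypes in endosteal HSCs 2 of 12 were under an unadjusted p of 0.05 (background 6.69%), both lower. Of the 12, 3 did not overlap (background 6.24%), and the median was -0.16. In central HSCs 3 of 12 were under that p (background 8.73%), 2 higher and 1 lower. There 1 of 12 did not overlap (background 12.4%), and the median was 0.17. Averaged over both places it was 4 of 12 (background 14.5%), 1 higher and 3 lower, and DESeq2 called 4 (background 9.86%). The median for endosteal against central was 0.07 in WT and -0.31 in Gfra2-/- HSCs. Eef1a1, which delivers tRNAs to the elongating ribosome, had 3255 to 3675 CPM in endosteal and 1545 to 2419 CPM in central WT libraries, without overlap (0.85, SE 0.18, adjusted p = 0.272, edgeR). In Gfra2-/- HSCs the places overlapped, with 2669 to 3637 CPM and 2971 to 3764 CPM (-0.06, SE 0.17, adjusted p = 0.999, edgeR), and the interaction was -0.93 (SE 0.23, adjusted p = 0.523, edgeR). Eef1d and Eef1b2, subunits of the exchange factor of eEF1A, were at -0.81 (SE 0.24) and -0.81 (SE 0.29) between genotypes in endosteal HSCs, with edgeR adjusted p of 0.664 and 0.737. Dhps and Dohh, the enzymes that make the hypusine of eIF5A and were looked up after the values of Eif5a were seen, stood at 0.47 (SE 0.53) and -0.53 (SE 0.63) between the places over both genotypes, with edgeR adjusted p of 0.809 and 0.822.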

How the data were processed

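The authors mapped single-end Smart-seq2 reads on GRCm38 with GSNAP, dropping reads with more than 1 place, counted them per gene with HTSeq (0.5.3p3 in the submitters' processing notes) without regard to strand, and deposited raw counts, neither normalized nor filtered, with 92 spike-in RNAs and 5 summary categories. The labels describe 16 samples. The columns are numbered and match no label. The study's own list of libraries gave the group of 15 columns, not the replicate, so the group of a column rests on that list, and 1 column of per-sample values was not used. Reads outside genes were 27.9% to 37.7% and ambiguous reads 5.93% to 17.0% per library, and both stayed out of totals.

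Symbols, exon lengths and positions came from GENCODE M21. Counts were tested with edgeR 4.0.16 (R 4.3.3): libraries of both groups in a comparison, genes kept by filterByExpr, TMM factors, the quasi-likelihood test and an FDR of 0.1 over all genes; the interaction and the averages used all 15. SE is the size of the log2 fold change divided by the root of its F value. The script was tested on simulated data. Alternatives were DESeq2 1.42.0, DESeq2 or spike-in size factors, other filters, thinned counts, subsets of libraries and each library left out. Every-library values are given for the 3 members of smallest p in each comparison, for members not overlapping in 2 or more comparisons, and for Eif4e, Eif4ebp1, Eif4ebp2, Eif5a, Eif2s3x and Eif2s3y. Eif1, Eif3g and the other eIF2B subunits were added after their values were seen. The members and lists were chosen with earlier results of these data known. Marker lists of T and NK cells, endothelium, erythroid cells, megakaryocytes, and stroma and bone summed to at most 118, 323, 649, 581 and 300 CPM in any library. Amplified reads were counted with no molecular identifiers and can be copies of 1 molecule, the study calls its replicates biological without saying that each pool came from its own mouse, and p-values measure the spread between these libraries.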

Additional observations from a re-analysis of the deposited data

Results flagged for a closer look

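In 39 groups of 4 libraries, the named members were screened for a library far from the other three, by the gap to its neighbour over the range of the group, for which chance passes about 1 in 20 groups. In 1 of these groups it passed Dixon's 95% critical value. Eif2s3y had 73.4 CPM (634 counts) in endosteal Gfra2-/- C, where the other libraries of that group had 116 to 124 CPM, a gap of 0.838 of the range.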

How the results depend on the processing

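The count of 0 members past the FDR was kept under most alternatives in each comparison. DESeq2 gave 1 member in each of the 4 comparisons and in the interaction, 3 for the averaged places and 6 for the averaged genotypes. Eif2b3 also passed between the WT places with no filter on low counts (1 member) and with all 4 groups in one fit (1 member), and in the interaction with spike-in size factors (1 member). For the averaged places, 1 member passed with DESeq2 size factors, spike-in size factors, no filter, or at least 10 counts in every library, and for the averaged genotypes 1 (Eif3j2) passed with at least 10 counts. Leaving out single libraries gave 0 members throughout, except 0 to 1 for the averaged places: Eif2b3 without endosteal WT A or central WT B (adjusted p of 0.0996 and 0.0813, edgeR) and Eif5a without central WT D (adjusted p of 0.0826, edgeR). The cause was not tested. Spike-in size factors moved the median of all genes to 1.77, -0.60, -0.20 and 1.63 in the 4 comparisons, and relative to it the median member stood at -0.05, 0.04, -0.05 and -0.14. They turned Eif5a to -0.030 between the Gfra2-/- places and to -0.27 between the endosteal genotypes, and Eif4h to 1.02 between the central and 0.21 between the averaged genotypes. Eif5a between the endosteal genotypes, at 0.03, was also negative without endosteal Gfra2-/- B and D (-0.065) and ranged from -0.039 to 0.089 with single libraries left out. Eif2b3 between the Gfra2-/- places was -0.073 in libraries with over 0.5% spike-in reads. No paired analysis was possible because no source ties a column to a numbered sample. A fit with the split at 0.5% spike-in reads as a term, added after the data were seen, gave 0 members past the FDR in every comparison. The depth of the central WT libraries, from 826487 reads, limits what can be told of members at a few CPM.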
